A study of Homo sapiens with 10 samples.

Results

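The SLC25 genes encode the mitochondrial carriers, and their transcripts were compared between RPE-1 cells treated with sulforaphane (SFN) and cells treated with the vehicle DMSO. Every row of the count table whose gene symbol was SLC25A and a number was taken, which gave 45 of 28380 genes. Of these, 39 had enough counts for a test, among 13378 genes tested in all. SLC25A6, SLC25A47 and SLC25A48 were not analysed here.

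The established human line RPE-1 comes from retinal pigment epithelium and was made immortal with telomerase. Both groups were the same cells in complete medium, and one was exposed to 25 µM SFN, an isothiocyanate found in broccoli, and the other to DMSO, for 4 h, with 5 replicates each. The study's methods name QuantSeq libraries, which read the 3′ ends of transcripts, and the libraries held between 12375860 and 20666692 counts. The study's methods describe replicates as independent in general, but the labels do not say that these libraries came from separate cultures, so the p-values measure the spread between these libraries, which may be technical. Both groups are a single immortalized line in culture.

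Carriers of the SLC25 family sit mostly in the inner mitochondrial membrane and exchange nucleotides, phosphate, carboxylic acids, amino acids and cofactors between the cytosol and the matrix. They are encoded in the nucleus, made in the cytosol without a cleaved targeting sequence in most cases, and brought to the inner membrane by the TOM70 receptor, the small TIM chaperones and the TIM22 complex. Close paralogs often carry the same substrate and differ in calcium control or in the tissues where they are made. SFN is best known for modifying KEAP1, which releases the transcription factor NRF2 to act at antioxidant response elements.

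DMSO replicate 1 stood apart over all genes, and SFN replicate 2 stood apart for a number of carriers. DMSO replicate 1 had a mean Spearman correlation over genes of 0.935 with its group, and the rest of that group lay between 0.979 and 0.982. The same measure was 0.982 for SFN replicate 2 and between 0.984 and 0.991 for the other SFN libraries. Among the 39 tested carriers, 6 were more than 0.5 higher and 10 more than 0.5 lower in DMSO replicate 1 than in the mean of the other DMSO libraries, on the log2(CPM + 0.5) scale, where CPM is a count divided by the library total in units of 1e+06 after scaling by the trimmed mean of M-values (TMM). By the same measure SFN replicate 2 also differed by more than 0.5 from the mean of the other SFN libraries for many carriers. It was high for SLC25A29 (0.86), SLC25A10 (0.74), SLC25A14 (0.72) and others, and low for SLC25A30 (-0.77) and SLC25A36 (-0.76). Its deviation from the other SFN libraries had a Spearman correlation of -0.55 with transcript length over the 39 carriers, against -0.12 for DMSO replicate 1. These correlations are across genes of 1 library and carry no test. Results are therefore also given without DMSO replicate 1, and the counts of calls also without SFN replicate 2. Summed over the 45 carriers, the level was 1619 CPM in DMSO replicate 1, between 1283 and 1317 CPM in the other DMSO libraries and between 1324 and 1556 CPM in SFN. The share of raw counts was 0.143% in DMSO replicate 1 and between 0.137% and 0.141% in the other DMSO libraries. In SFN it lay between 0.130% and 0.146%. The TMM factor was 0.886 in DMSO replicate 1 and between 1.06 and 1.08 in the other DMSO libraries.

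The labelled cell type was checked against marker genes. The keratins KRT8 and KRT18, the mesenchymal genes VIM, CDH2 and FN1, and the pigment epithelium genes MITF, OTX2, PAX6 and BEST1 were above 1 CPM in every library. RPE65 and RLBP1, which mark mature pigment epithelium, had at most 3 and 4 counts, and KRT19, EPCAM and SERPINF1 at most 5, 2 and 2. Of the endothelial markers, PECAM1, VWF and CDH5 together reached at most 0.560 CPM in DMSO and 0.298 CPM in SFN. The immune markers PTPRC and CD14 together lay between 0 and 0.137 CPM in DMSO and between 0.282 and 1.43 CPM in SFN, of which CD14 had at most 18 counts, and the part of this in the results was not tested.

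After 4 h of SFN, 2 carriers rose, SLC25A25 and SLC25A34, and 5 fell, among them SLC25A29, SLC25A12, SLC25A16 and SLC25A13, at an adjusted p under 0.05 in the quasi-likelihood fit of edgeR, adjusted by Benjamini-Hochberg over all genes tested. The increased carriers changed by more than 2-fold and the decreased ones by less. SLC25A34 passed the filter on low counts through its SFN libraries only, with 0 DMSO libraries over the cutoff of 0.637 CPM, so it could enter the test only by being higher in SFN, and the count of increased carriers holds 1 other. SLC25A25, a calcium-controlled carrier of ATP-Mg and phosphate, rose 2.23-fold. SLC25A29, a carrier of basic amino acids, fell by 0.84 on the log2 scale, and the decreased carriers included both aspartate/glutamate carriers, SLC25A12 and SLC25A13. The remaining 32 did not pass the test.

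As a share of the 39 tested, 5.13% of the carriers rose and 12.8% fell. Over all 13378 genes, 9.07% were increased and 13.9% decreased by the same rule. Both shares of the carriers were below these, but they rest on 2 and 5 genes and the difference was not tested. Without DMSO replicate 1 the increased share was the higher one, at 25.6% beside 22.5%. Over the tested carriers the median log2 fold change was -0.02, beside -0.03 over all genes tested, with 19 carriers above 0 and 20 below. In the SFN libraries taken singly, the median difference from the DMSO mean lay between -0.12 and 0.08. In bulk RNA, a change in the number of cells of a kind and a change in RNA per cell cannot be told apart.

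The groups did not overlap for 6 carriers. All SFN libraries lay above all DMSO libraries for SLC25A25, SLC25A34 and SLC25A20, which is 7.69% of those tested beside 8.78% of all genes. They lay below all DMSO libraries for 3 carriers, SLC25A16 and SLC25A37 among them, again 7.69%, beside 11.1% of all genes.

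**Figure D1:**
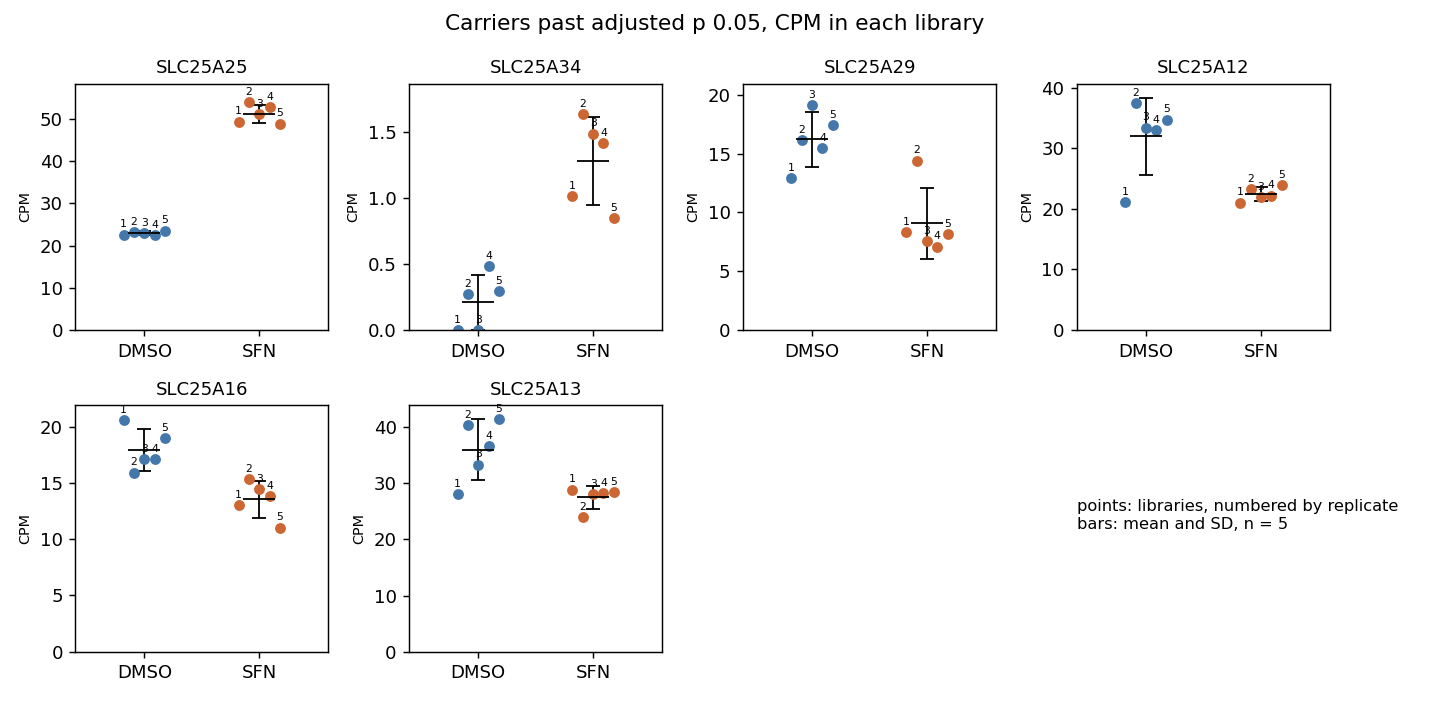
Level in CPM (vertical axis, from 0) in each DMSO and SFN library for 6 of the 7 carriers past adjusted p 0.05, with points numbered by replicate and bars for the mean and SD of 5 libraries. SLC25A25 sat between 22.5 and 23.6 CPM in DMSO and between 48.9 and 54.0 CPM in SFN, whereas DMSO replicate 1 of SLC25A12, at 21.1 CPM, lay among the SFN libraries.

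Carriers of ATP-Mg and phosphate change the total adenine nucleotide content of the matrix, and SLC25A23, SLC25A24 and SLC25A25 bind calcium through domains that face the space between the membranes. SLC25A25 (ENSG00000148339) lies on chromosome 9 of GRCh38 from 128068201 to 128109245 on the plus strand. It stood at 22.6, 23.3, 22.9, 22.5 and 23.6 CPM in DMSO replicates 1 to 5 and at 49.4, 54.0, 51.2, 52.8 and 48.9 CPM in SFN replicates 1 to 5. Every SFN library lay far above every DMSO library, and DMSO replicate 1 lay within its group. The mean rose from 23.0 ± 0.456 CPM (SD, n = 5) to 51.3 ± 2.16 CPM (SD, n = 5), a log2 fold change of 1.16 with a standard error of 0.09 (adjusted p = 3.9e-06 by edgeR). The adjusted p stayed under 0.05 by edgeR, limma or DESeq2 in 20 of 20 alternatives, with log2 fold changes between 1.07 and 1.18.

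The 3′ end of SLC25A25 overlaps that of SLC25A25-AS1, a non-coding gene on the minus strand, over 665 bases. SLC25A25-AS1 had between 13 and 29 counts in DMSO and between 47 and 60 in SFN. Its own log2 fold change was 1.61 ± 0.21 (SE) with an edgeR adjusted p of 2.3e-04. The use of strand in the counting is not given in the sources used here, so reads in the shared stretch cannot be told apart. SLC25A25 had between 363 and 511 counts in DMSO and between 626 and 829 in SFN.

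The promoters of SLC25A25, SLC25A34, SLC25A29, SLC25A12 and SLC25A13, the called carriers with a window in the promoter table, are shown because SFN acts on a factor with a known element. They are the 250 bases before a RefSeq start on GRCh38.p14, 5′ to 3′ on the strand of the gene, in lower case with any match to the 5 motifs searched in capitals. SLC25A25 has 3 starts in this table, and the most upstream one is shown, chr9:128067982-128068231 on the plus strand. The counts are per gene, so they do not say which start was used in these cells. SLC25A34 is chr1:15736008-15736257 on the plus strand. On the minus strand are SLC25A29, chr14:100306445-100306694, SLC25A12, chr2:171894245-171894494, and SLC25A13, chr7:96322099-96322348.
SLC25A25: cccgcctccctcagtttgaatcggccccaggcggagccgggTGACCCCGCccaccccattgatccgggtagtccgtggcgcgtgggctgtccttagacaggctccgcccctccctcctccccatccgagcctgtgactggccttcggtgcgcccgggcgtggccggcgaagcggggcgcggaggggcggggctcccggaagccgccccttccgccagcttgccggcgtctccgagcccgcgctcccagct
SLC25A34: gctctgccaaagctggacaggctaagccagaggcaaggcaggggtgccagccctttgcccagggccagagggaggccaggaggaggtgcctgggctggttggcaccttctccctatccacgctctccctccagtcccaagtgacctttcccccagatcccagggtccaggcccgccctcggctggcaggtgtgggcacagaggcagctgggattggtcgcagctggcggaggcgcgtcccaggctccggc
SLC25A29: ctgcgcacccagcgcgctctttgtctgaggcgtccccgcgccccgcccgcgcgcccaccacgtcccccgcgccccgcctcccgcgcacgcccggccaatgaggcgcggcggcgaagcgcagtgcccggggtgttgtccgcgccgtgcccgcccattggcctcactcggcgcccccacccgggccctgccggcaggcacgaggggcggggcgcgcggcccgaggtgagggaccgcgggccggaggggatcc
SLC25A12: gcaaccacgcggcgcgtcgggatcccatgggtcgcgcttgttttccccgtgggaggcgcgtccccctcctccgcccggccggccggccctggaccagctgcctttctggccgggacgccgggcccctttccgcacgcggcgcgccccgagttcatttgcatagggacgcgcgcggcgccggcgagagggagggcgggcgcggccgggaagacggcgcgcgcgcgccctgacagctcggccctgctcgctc
SLC25A13: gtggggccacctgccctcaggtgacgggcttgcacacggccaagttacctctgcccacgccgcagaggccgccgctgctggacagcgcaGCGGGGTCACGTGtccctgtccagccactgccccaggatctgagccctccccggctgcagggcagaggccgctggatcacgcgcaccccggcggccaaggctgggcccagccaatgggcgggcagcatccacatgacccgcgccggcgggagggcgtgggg
The capitals in SLC25A25 mark a match to the core of the antioxidant response element, TGACNNNGC, 209 bases before the start, and a further match on the other strand begins 23 bases after the start. Those in SLC25A13 mark a match to the same core on the other strand and an E-box, CACGTG, which share 2 bases. SLC25A34, SLC25A29 and SLC25A12 hold no match in this window, and neither do the other starts of SLC25A25.

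Windows from 250 bases before to 50 after the start were in the table for 37 of the 45 carriers, 46 windows in all, and were searched on both strands. The antioxidant core was in 9 of the 46 windows (19.6%) and in 13.3% of all 35116 windows, and the carriers with it were SLC25A1, SLC25A5, SLC25A13, SLC25A22, SLC25A24, SLC25A25, SLC25A39, SLC25A45 and SLC25A46. Of these SLC25A25 rose and SLC25A13 fell, which is 1 of the 2 increased and 1 of the 3 decreased carriers with a window. These are counts of genes, with SLC25A25 counted through 1 of its windows, whereas the share of 13.3% is of windows. The E-box was in 9 windows (19.6%) beside 7.26% of all, and CCGGAAGT, the site of ETS factors, in 4 (8.7%) beside 4.14%. The first part of the C/EBP-ATF response element, TGATGNAAN, was in 1 window (2.17%), that of SLC25A11, beside 3.61% of all, and GCGCATGC, the centre of the NRF1 site, was in 0 beside 3.05%. The windows of the carriers had a median GC content of 66.2% and all windows 58.7%, so shares of GC-rich motifs are not on an equal footing. A match describes letters in a window and not a bound site.

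The other ATP-Mg carriers did not pass. SLC25A24 had a log2 fold change of 0.25 (standard error 0.11, adjusted p = 0.15 by edgeR), with 165 CPM in DMSO replicate 1 against 123 to 135 CPM in the other DMSO libraries and 135 to 174 CPM in SFN. Leaving that DMSO library out gave 0.32 (adjusted p = 0.0081 by edgeR). SLC25A23 had a log2 fold change of 0.18 (adjusted p = 0.48 by edgeR). SLC25A41 had at most 17 counts and was not tested.

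Adenine nucleotide carriers exchange ADP for ATP across the inner membrane and are among the most abundant mitochondrial proteins. SLC25A4, the form of heart and muscle, was at 129 CPM in DMSO replicate 1, between 47.5 and 53.6 CPM in the other DMSO libraries and between 38.3 and 57.8 CPM in SFN. Its log2 fold change was -0.36 (standard error 0.27, adjusted p = 0.39 by edgeR) and 0.02 without DMSO replicate 1, so that library alone gave the sign. SLC25A5, the form of dividing cells, lay between 149 and 204 CPM in DMSO and between 160 and 232 CPM in SFN, with a log2 fold change of 0.25 (adjusted p = 0.18 by edgeR) that was 0.33 without DMSO replicate 1 (adjusted p = 0.013 by edgeR). SLC25A31, the testis form, had at most 9 counts and was not tested. SLC25A3, which brings phosphate for ATP synthesis and copper for cytochrome oxidase, lay at 457 CPM in DMSO replicate 1, between 281 and 304 CPM in the other DMSO libraries and between 292 and 414 CPM in SFN. Its log2 fold change was 0.12 (adjusted p = 0.64 by edgeR), and 0.27 without DMSO replicate 1 (adjusted p = 0.027 by edgeR).

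Among carriers of other nucleotides and cofactors, 2 of 9 tested fell and 0 rose, beside 13.9% and 9.07% of all genes tested. SLC25A16 (ENSG00000122912; chromosome 10, 68477998 to 68527523, minus strand), which is linked to the matrix supply of coenzyme A, stood at 20.6, 15.9, 17.1, 17.1 and 19.0 CPM in DMSO and at 13.1, 15.4, 14.4, 13.8 and 11.02 CPM in SFN, in order of replicate. The groups came close to each other, at 15.9 and 15.4 CPM, without overlap. The mean fell from 17.9 ± 1.84 to 13.5 ± 1.64 CPM (SD, n = 5 each), a log2 fold change of -0.41 with a standard error of 0.12 (adjusted p = 0.033 by edgeR). The call was lost when DMSO replicate 3, 4 or 5 or SFN replicate 1, 3, 4 or 5 was left out, with adjusted p up to 0.080 by edgeR.

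SLC25A26, which brings S-adenosylmethionine into the matrix for methylation of RNA and protein, lay between 5.80 and 8.53 CPM in DMSO and between 7.41 and 11.5 CPM in SFN. Its log2 fold change was 0.53 (standard error 0.18, adjusted p = 0.051 by edgeR), and without DMSO replicate 1, its highest DMSO library, 0.64 (adjusted p = 0.0046 by edgeR). Without SFN replicate 2 it was 0.45 (adjusted p = 0.11 by edgeR), and 2 of the 10 fits that left out 1 library passed. SLC25A36 was at -0.19 and SLC25A42 at 0.37, and these and the 4 carriers named next had adjusted p of at least 0.39 by edgeR. SLC25A33 (0.03) carries pyrimidine nucleotides, as SLC25A36 does, SLC25A42 carries coenzyme A, SLC25A51 (-0.15) carries NAD, SLC25A32 (0.24) carries folate or FAD, and SLC25A17 (-0.09) is the peroxisomal member. SLC25A52, a near copy of SLC25A51 with 97.6% identical coding bases and a shared run of 169 bases, had at most 1 count, and since the counting could split reads between the 2 genes their separate values are uncertain.

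Among carriers of amino acids and carnitine, 3 of 8 tested fell and 0 rose, beside 13.9% and 9.07% of all genes tested. With so few genes the role was not tested as a group. SLC25A29 (ENSG00000197119; chromosome 14, 100291116 to 100306547, minus strand), a carrier of arginine, lysine and ornithine, stood at 12.9, 16.1, 19.1, 15.5 and 17.4 CPM in DMSO and at 8.29, 14.4, 7.52, 7.09 and 8.12 CPM in SFN, in order of replicate. SFN replicate 2 lay above DMSO replicate 1, and the other SFN libraries lay below every DMSO library. The mean fell from 16.2 ± 2.32 to 9.08 ± 3.01 CPM (SD, n = 5 each), a log2 fold change of -0.84 with a standard error of 0.20 (adjusted p = 0.0096 by edgeR). The adjusted p stayed under 0.05 in 20 of 20 alternatives, and the value was -1.06 without SFN replicate 2.

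SLC25A12 and SLC25A13 export aspartate from the matrix in exchange for glutamate, a step of the malate-aspartate shuttle that moves reducing power into mitochondria. SLC25A12 (ENSG00000115840; chromosome 2, 171783405 to 171999859, minus strand) stood at 21.1, 37.5, 33.4, 33.0 and 34.7 CPM in DMSO and at 21.0, 23.2, 21.9, 22.2 and 23.9 CPM in SFN, in order of replicate. DMSO replicate 1 lay among the SFN libraries and the other DMSO libraries lay above all of them. The mean fell from 31.96 ± 6.31 to 22.4 ± 1.11 CPM (SD, n = 5 each), a log2 fold change of -0.51 with a standard error of 0.15 (adjusted p = 0.025 by edgeR). With that library left out it was -0.63 (adjusted p = 4.7e-05 by edgeR). Leaving out DMSO replicate 2, 3, 4 or 5 or SFN replicate 1, 3 or 4 ended the call, with adjusted p up to 0.069 by edgeR. The span of SLC25A12 overlaps HAT1, a histone acetyltransferase gene on the other strand, over 61239 bases. HAT1 lies from 171922448 to 171983686, upstream of the SLC25A12 promoter window shown above, which ends at 171894494. The 3′ end of SLC25A12 is at 171783405. HAT1 had 6301 counts in DMSO replicate 1 and between 2185 and 3395 in all other libraries, with a log2 fold change of 0.07 (adjusted p = 0.91 by edgeR). The part of this in the SLC25A12 value was not tested.

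SLC25A13 (ENSG00000004864; chromosome 7, 96120220 to 96322147, minus strand) stood at 28.0, 40.4, 33.3, 36.6 and 41.4 CPM in DMSO and at 28.9, 23.9, 28.1, 28.2 and 28.5 CPM in SFN, in order of replicate. Again DMSO replicate 1 lay among the SFN libraries, and the lowest value was that of SFN replicate 2. Its mean fell from 35.9 ± 5.46 to 27.5 ± 2.03 CPM (SD, n = 5 each), a log2 fold change of -0.39 with a standard error of 0.12 (adjusted p = 0.044 by edgeR). Of the 10 fits that left out 1 library, the call held in 1, without DMSO replicate 1, where the value was -0.47 (adjusted p = 0.0015 by edgeR), and otherwise the adjusted p reached 0.11. SLC25A13 thus rests close to the threshold.

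SLC25A20, which exchanges acylcarnitine for carnitine so that fatty acids can be burned, stood at 7.91, 9.34, 9.73, 8.61 and 10.8 CPM in DMSO and at 11.1, 11.7, 12.0, 13.0 and 11.2 CPM in SFN, in order of replicate. The groups did not overlap, but the log2 fold change of 0.35 (standard error 0.12) had an adjusted p of 0.055 by edgeR. SLC25A15, the ornithine carrier of the urea cycle, was at -0.30 (adjusted p = 0.24 by edgeR) and at -0.43 without DMSO replicate 1 (adjusted p = 0.014 by edgeR). The glycine carrier SLC25A38, at -0.03, the branched-chain amino acid carrier SLC25A44, at -0.02, and the glutamate carrier SLC25A22, at 0.07, had adjusted p of at least 0.82 by edgeR. SLC25A38 was at 61.8 CPM in DMSO replicate 1 and at most 36.9 CPM in the other DMSO libraries. SLC25A2 and SLC25A18 had at most 2 and 4 counts and were not tested.

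**Figure D2:**
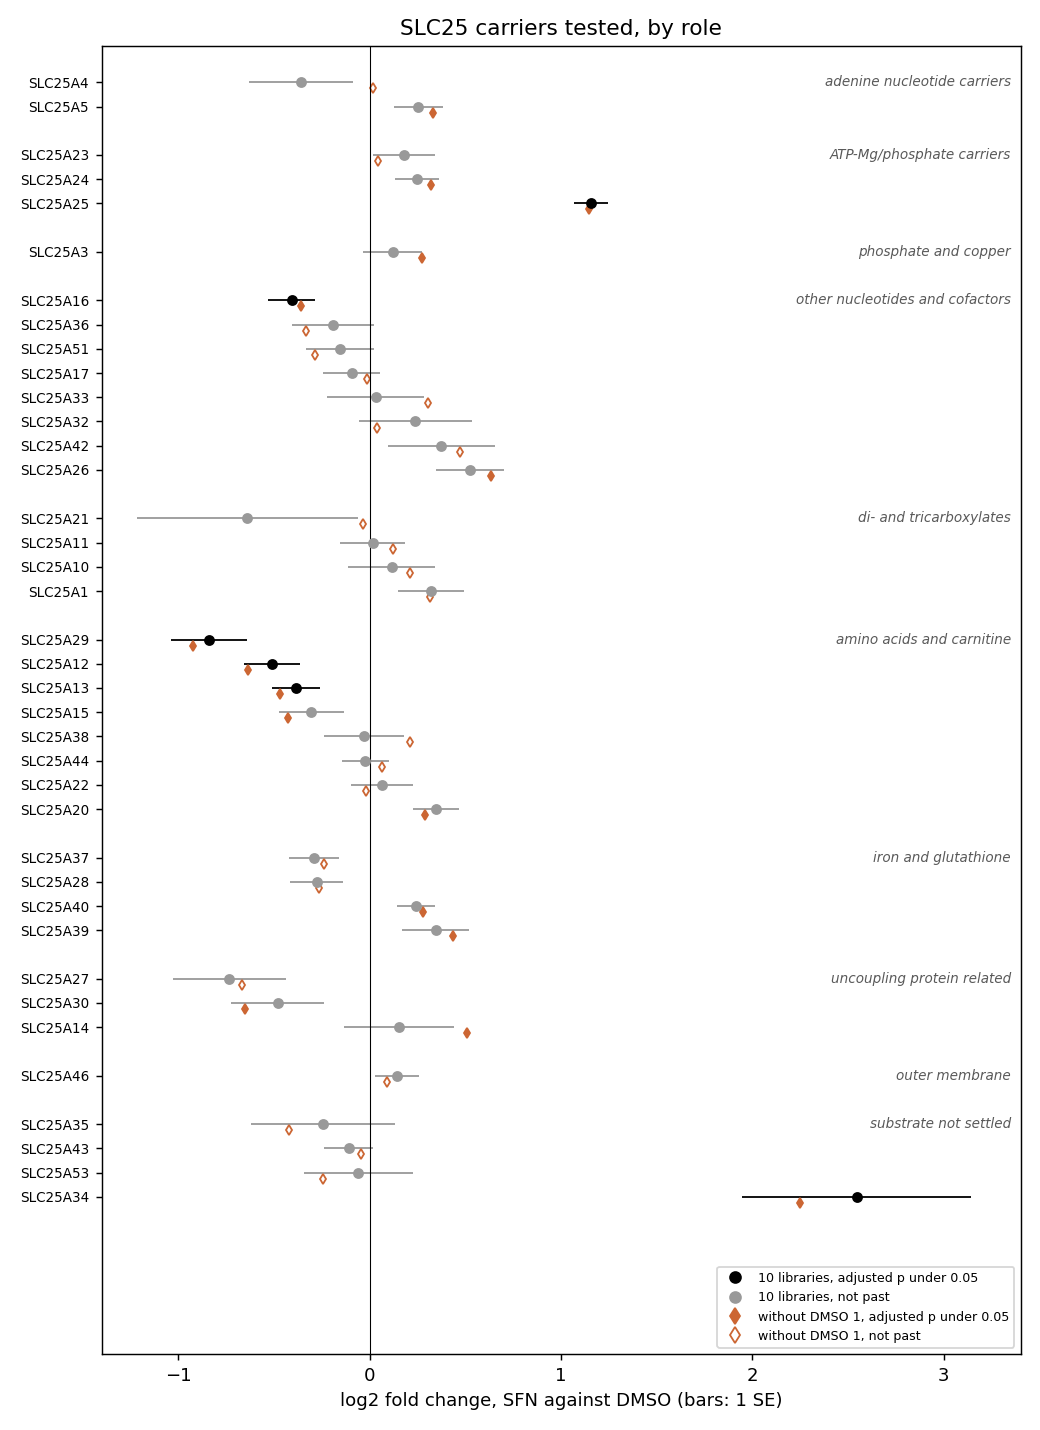
Log2 fold change of SFN against DMSO (horizontal axis, bars 1 SE) for 38 of the 39 tested carriers grouped by role, with circles for all 10 libraries and diamonds for the fit without DMSO replicate 1. Filled black circles mark calls with 10 libraries, from -0.84 for SLC25A29 to 2.55 for SLC25A34, and filled diamonds those without DMSO replicate 1.

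Carriers of di- and tricarboxylates link the citric acid cycle with the cytosol, and 0 of 4 tested were called in either direction (0 also at an unadjusted p under 0.05 by edgeR). The citrate carrier SLC25A1 had a log2 fold change of 0.32 (adjusted p = 0.21 by edgeR) and reached 49.6 CPM in SFN replicate 2, against 26.7 to 37.2 CPM in the other SFN libraries. The dicarboxylate carrier SLC25A10 was at 0.11, the oxoglutarate/malate carrier SLC25A11 at 0.02 and the oxodicarboxylate carrier SLC25A21 at -0.64 with a standard error of 0.58. SLC25A21 was at 2.62 CPM in DMSO replicate 1 and at most 0.888 CPM in the other DMSO libraries, and its value without that library was -0.03.

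The iron carriers mitoferrin 1 and 2, SLC25A37 and SLC25A28, supply haem and iron-sulfur cluster synthesis, and SLC25A39 and SLC25A40 bring glutathione into the matrix. None of these 4 passed by edgeR, where 1 was increased and 1 decreased at an unadjusted p under 0.05. The log2 fold changes were -0.29 for SLC25A37 (adjusted p = 0.14 by edgeR) and -0.28 for SLC25A28 (adjusted p = 0.19 by edgeR). SLC25A37 lay between 48.2 and 59.8 CPM in DMSO and between 33.8 and 47.6 CPM in SFN, without overlap. The glutathione carriers were at 0.35 for SLC25A39 (adjusted p = 0.19 by edgeR) and 0.24 for SLC25A40 (adjusted p = 0.105 by edgeR), and without DMSO replicate 1 both passed, at 0.43 (adjusted p = 0.029 by edgeR) and 0.28 (adjusted p = 0.020 by edgeR). SLC25A39 reached 57.1 CPM in SFN replicate 2, with 29.7 to 41.8 CPM in the other SFN libraries, and without that library its value was 0.20.

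The relatives of the uncoupling proteins were called in neither direction, with 0 increased and 1 decreased of 3 at an unadjusted p under 0.05 by edgeR. SLC25A27 was at -0.73 (standard error 0.30, adjusted p = 0.098 by edgeR) and SLC25A30 at -0.48 (standard error 0.24, adjusted p = 0.19 by edgeR). SLC25A30 lay at 18.3 CPM in DMSO replicate 1, between 36.1 and 42.9 CPM in the other DMSO libraries and between 16.3 and 33.3 CPM in SFN. Its value was -0.65 without DMSO replicate 1 (adjusted p = 0.0043 by edgeR) and -0.35 without SFN replicate 2 (adjusted p = 0.35 by edgeR). SLC25A14 went the other way in DMSO replicate 1, at 20.3 CPM there and between 7.83 and 9.17 CPM in the other DMSO libraries. Its value moved from 0.15 to 0.51 without that library (adjusted p = 0.024 by edgeR). SFN replicate 2 was at 17.4 CPM for SLC25A14, against 9.46 to 11.9 CPM in the other SFN libraries. Without SFN replicate 2 the value of SLC25A14 was -0.01 (adjusted p = 0.98 by edgeR). SLC25A46, an outer membrane member with a part in mitochondrial shape, was at 0.14 (adjusted p = 0.43 by edgeR).

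Of the carriers whose substrate is not settled, 1 of 4 tested rose, beside 9.07% of all genes tested. SLC25A34 (ENSG00000162461; chromosome 1, 15736258 to 15741392, plus strand) had 0, 6, 0, 8 and 5 counts in DMSO and 17, 19, 20, 21 and 12 counts in SFN, in order of replicate. All SFN libraries lay above all DMSO libraries, at a low level. The mean rose from 0.210 ± 0.208 to 1.28 ± 0.335 CPM (SD, n = 5 each), a log2 fold change of 2.55 with a standard error of 0.60 (95% interval 1.24 to 3.85, adjusted p = 0.0094 by edgeR), where counting error is a large part of the spread. The adjusted p stayed under 0.05 in the 19 alternatives that kept the gene, with log2 fold changes between 2.16 and 3.03. In the main fit the gene passed the filter through its SFN libraries only, so these refits are not independent support for the rise. PLEKHM2 ends 1488 bases upstream on the same strand and had a log2 fold change of 0.20 (adjusted p = 0.38 by edgeR), and SLC25A34-AS1, which overlaps on the other strand, had at most 11 counts. SLC25A35 was at -0.24, SLC25A43 at -0.11 and SLC25A53 at -0.06, with adjusted p of at least 0.60 by edgeR, and SLC25A45 had at most 16 counts and was not tested.

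Without DMSO replicate 1, 10 of 39 carriers (25.6%) were increased and 7 (17.9%) decreased, beside 22.5% and 23.5% of the 13566 genes then tested. All 7 carriers called with 10 libraries were called again in the same direction. SLC25A3, SLC25A5, SLC25A14, SLC25A20, SLC25A24, SLC25A26, SLC25A39 and SLC25A40 were added to those increased and SLC25A15 and SLC25A30 to those decreased. SLC25A20 and SLC25A26 passed in 2 of the 10 fits that left out 1 library, and the other added carriers in 1. Over all 39 carriers tested, the median log2 fold change without DMSO replicate 1 was 0.04, beside -0.0032 for all genes tested. Without SFN replicate 2, 2 carriers were increased and 4 decreased, since SLC25A13 no longer passed. Of the 13555 genes then tested, 1090 were increased and 1685 decreased.

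**Figure D3:**
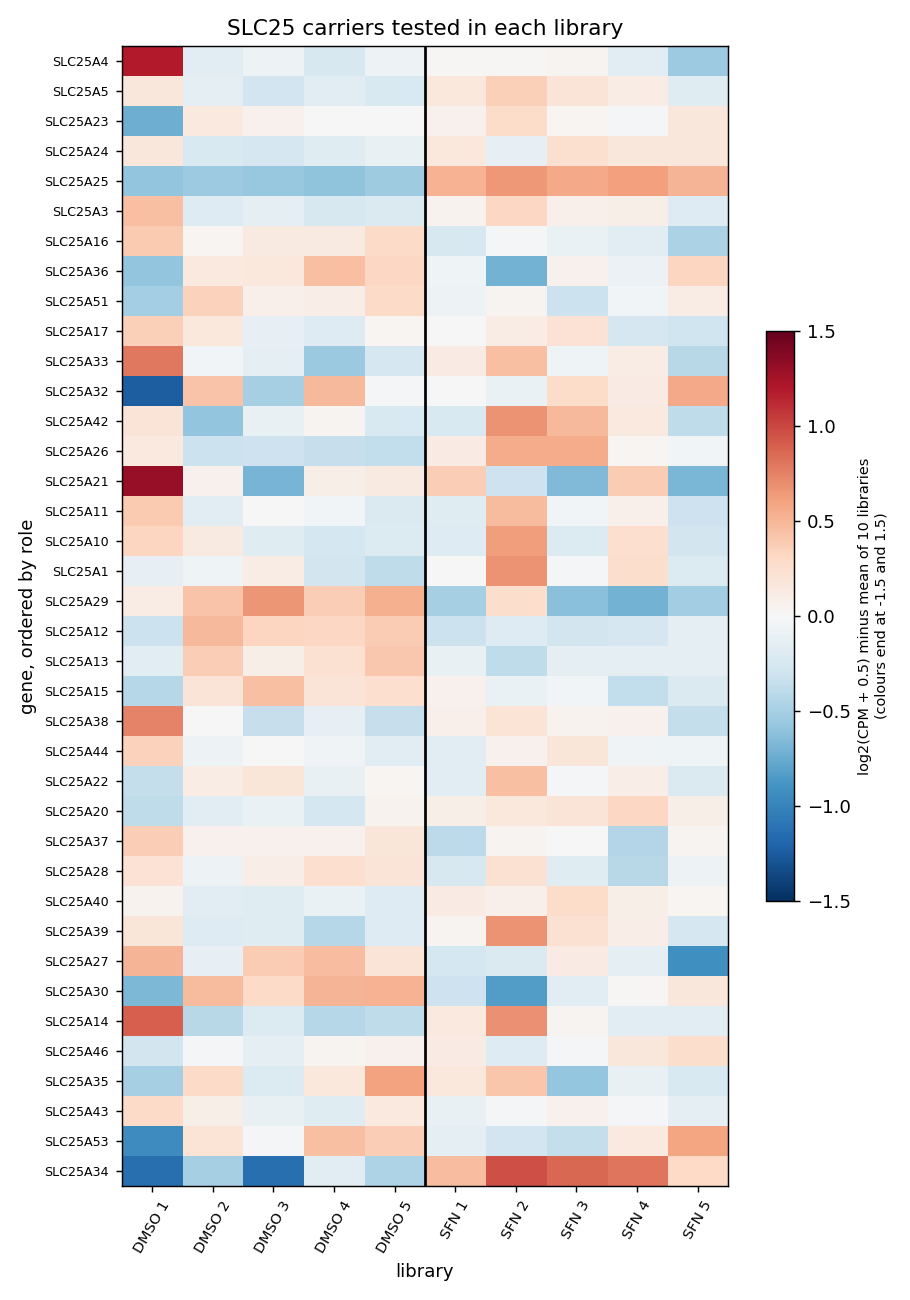
Log2(CPM + 0.5) minus the mean of the 10 libraries (colour, from -1.5 to 1.5) for 38 of the 39 tested carriers, in rows ordered by role, in each library, in columns. SLC25A25 is low in all 5 DMSO and high in all 5 SFN libraries, and the column of DMSO replicate 1 departs from the other DMSO columns, as for SLC25A4 at 129 CPM.

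Whether close paralogs responded unequally was asked with the log2 ratio of their counts within each library, which does not depend on how libraries are scaled. The ratios are of counts, not corrected for length, so only their change is read. Of 11 pairs tested, 5 differed between SFN and DMSO by an exact two-sided permutation test over libraries at a Benjamini-Hochberg adjusted p under 0.05. Each of the 5 had an exact permutation p of 0.0079, the smallest that 5 against 5 libraries can give, and an adjusted p of 0.017. SLC25A25 is in 2 of these pairs, and SLC25A16 and SLC25A34 in 1 each, so these repeat the changes above.

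Relative to SLC25A25, SLC25A24 fell by 0.91 and SLC25A23 fell by 0.95, so the balance among the calcium-controlled carriers moved toward SLC25A25. The SLC25A24/SLC25A25 log2 ratio lay between 2.42 and 2.86 in DMSO and between 1.32 and 1.77 in SFN, and SLC25A23/SLC25A25 between -0.69 and 0.18 and between -1.18 and -0.88. SLC25A34 rose against SLC25A35 by 3.45, from -2.88 ± 1.497 to 0.57 ± 0.68 (SD, n = 5 each), with few counts on either side and 0 counts of SLC25A34 in some DMSO libraries. The size depends on the 0.5 added to each count and was 2.55 with 2 added, and this ratio too rests on a gene that entered the test through its SFN counts. SLC25A16 fell against SLC25A42 by 0.74, from 3.03 ± 0.29 to 2.28 ± 0.37, and was not past the threshold without DMSO replicate 2 or 5, with an adjusted p of 0.052 by the exact permutation test. Leaving out 1 library at a time gave 4 to 6 pairs past the threshold.

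SLC25A4 fell against SLC25A5 by 0.51, although neither passed on its own. The SLC25A4/SLC25A5 log2 ratio was -0.66 in DMSO replicate 1, between -1.77 and -1.48 in the other DMSO libraries and between -2.06 and -1.83 in SFN, so the groups did not overlap with or without that library. Leaving out that library gave a difference of -0.32 (exact permutation p = 0.0079, adjusted p = 0.022). It was not past the threshold without any 1 of the 5 SFN libraries, where the adjusted p was between 0.052 and 0.070 by the exact permutation test. The coding sequences of SLC25A4 and SLC25A5 are 77.2% identical, with a longest shared run of 14 bases between the transcripts.

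The other 6 pairs did not pass. SLC25A12 against SLC25A13 differed by -0.11 between SFN and DMSO (exact permutation p = 0.33, adjusted p = 0.51), SLC25A28 against SLC25A37 by 0.02 and SLC25A39 against SLC25A40 by 0.09. SLC25A14 against SLC25A30 differed by 0.68 (exact permutation p = 0.30, adjusted p = 0.51) and by 1.17 without DMSO replicate 1 (exact permutation p = 0.024, adjusted p = 0.044). SLC25A33 against SLC25A36 differed by 0.28 and SLC25A23 against SLC25A24 by -0.04. Over the 11 pairs the longest run of bases shared by the canonical transcripts was 29, for SLC25A12 and SLC25A13.

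**Figure D4:**
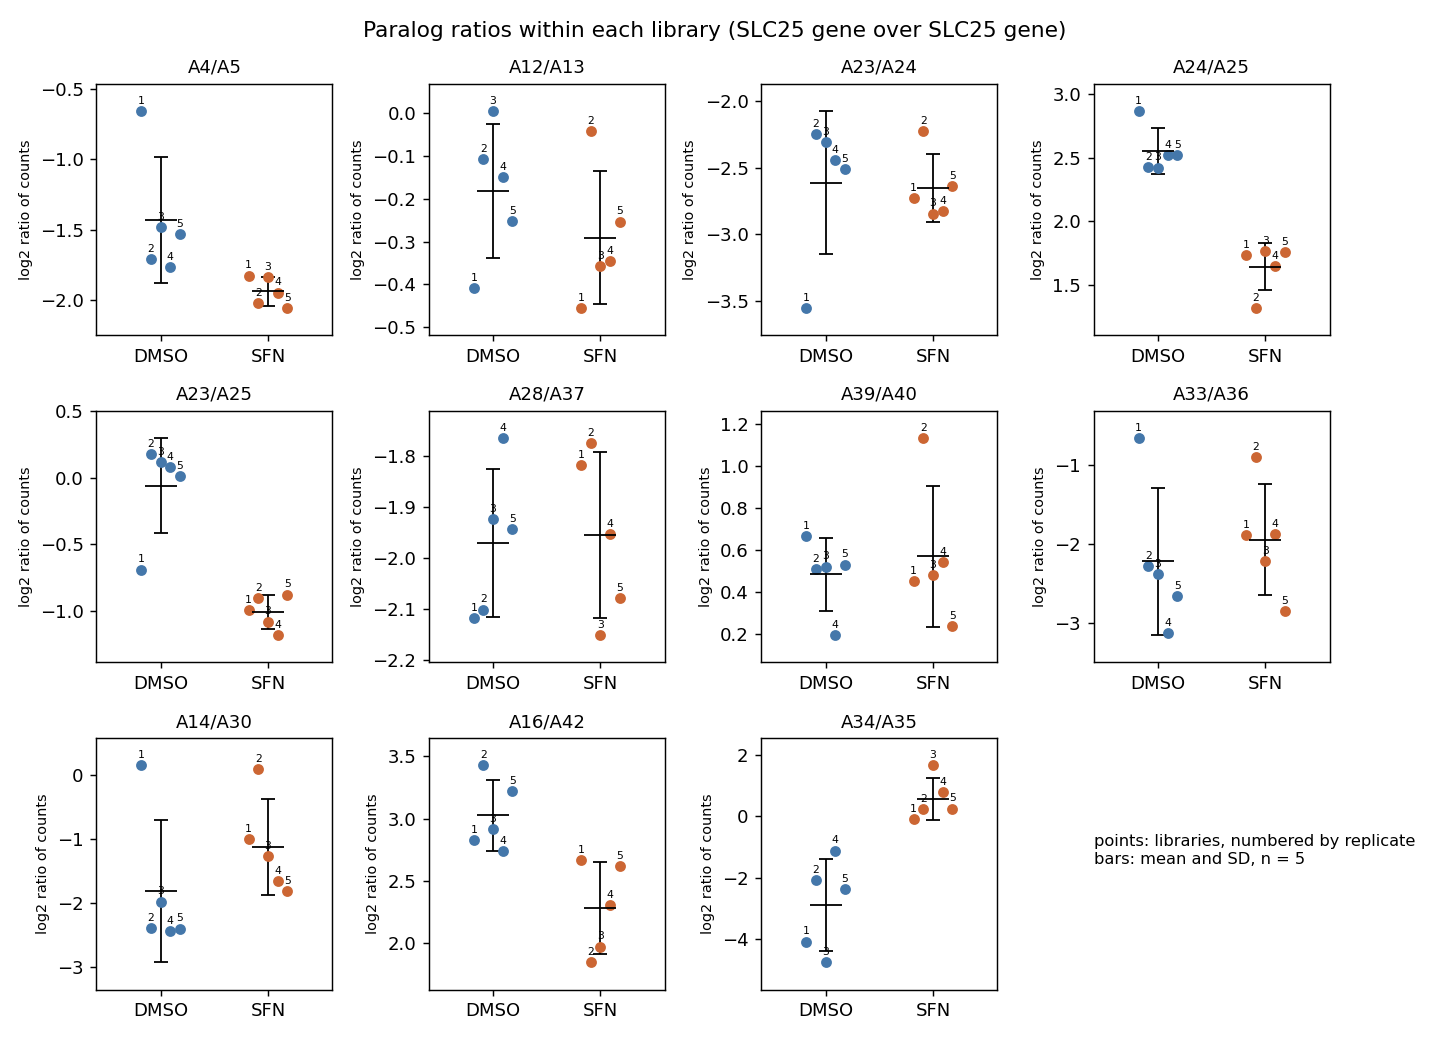
Log2 ratio of counts (vertical axis, each panel on its own scale) in every DMSO and SFN library for the 11 paralog pairs, with points numbered by replicate and bars for the mean and SD of 5 libraries. In the SLC25A24/SLC25A25 panel all SFN points, at most 1.77, lie below all DMSO points, at least 2.42, and DMSO replicate 1 stands apart in the SLC25A4/SLC25A5 panel at -0.66.

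Other genes of the same membranes were counted from lists, in the same fit. Of the carrier-fold proteins with other names, 2 of 4 tested rose and 0 fell. UCP3, an uncoupling protein, had a log2 fold change of 1.03 (standard error 0.30, adjusted p = 0.028 by edgeR) at 0.847 ± 0.255 CPM in DMSO and 1.73 CPM in SFN, and MTCH1, an outer membrane insertase of the carrier fold, was at 0.45 (standard error 0.11, adjusted p = 0.014 by edgeR). Among 22 other mitochondrial transporters 1 rose, the outer membrane channel VDAC1 (log2 fold change 0.40, adjusted p = 0.044 by edgeR), and 0 fell. Over all genes 9.07% were increased and 13.9% decreased in this fit, and of the 38 genes on these lists 3 were increased and 3 decreased. Of 12 genes of the import route that carriers use, 0 rose and 3 fell, all of them small TIM chaperones. These were TIMM8A (-0.75, adjusted p = 0.0051 by edgeR), TIMM9 (-0.73, adjusted p = 0.040 by edgeR) and TIMM10B (-0.52, adjusted p = 0.0018 by edgeR). The small TIM genes TIMM10 (-0.10), TIMM8B (-0.23) and TIMM13 (-0.25) did not pass, with adjusted p of at least 0.62 by edgeR. Of the 10 fits that left out 1 library, MTCH1, TIMM8A and TIMM10B passed in 10, UCP3 and TIMM9 in 4 and VDAC1 in 1, the one without DMSO replicate 1. UCP3 was lost without any 1 of DMSO replicates 2 to 5 or SFN replicate 1 or 3, TIMM9 without DMSO replicate 2 or 4 or SFN replicate 1, 3, 4 or 5, with adjusted p up to 0.099 by edgeR over these genes. In the fit without DMSO replicate 1, 14 of the 38 genes were increased and 6 decreased, where 22.5% of all genes were increased and 23.5% decreased. Of the 12 import genes 2 were then increased, TIMM10 (0.62, adjusted p = 0.0021 by edgeR) and TOMM20 (0.39, adjusted p = 0.0020 by edgeR). The same 3 were decreased, with TIMM9 at -0.46.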

How the data were processed

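The series holds RNA-seq of 5 DMSO and 5 SFN replicates of RPE-1 cells after 4 h. The file deposited by the authors holds raw counts for Ensembl genes, not normalized. The study's methods name QuantSeq libraries and the Bluebee pipeline, whereas the labels name Illumina library protocols and the submitters' processing notes list FastQC, STAR, featureCounts and edgeR on GRCh38. Versions, the handling of strand and molecular identifiers are not given in the sources used here. The authors' own test, limma on quantile normalized voom values with dream weights and an allowance for repeated measures, was not run. The nearest alternative here was limma-voom with quantile normalization.

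Counts were filtered with filterByExpr, scaled by TMM and compared with glmQLFit and glmQLFTest of edgeR 4.0.16 in R 4.3.3, with Benjamini-Hochberg adjustment over the 13378 genes tested and a threshold of 0.05. limma 3.58.1 and DESeq2 1.42.0 served as alternatives. The fits were tested on simulated counts. Paralog ratios had 0.5 added to each count. Positions, overlaps and transcripts are those of GENCODE 44, and promoters those of RefSeq on GRCh38.p14.

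The members, lists, roles and pairs were chosen with earlier results of these data known. Members were named, and those past the threshold given in every library, except that 1 tested member is counted in the totals and not otherwise reported here, and members of other lists where past it. Replicates were compared before averaging, and their chi-square per degree of freedom was between 3.50 and 243, so no pair agreed within sampling noise. Alternatives were other scalings, tests and filters, a replicate block, a fold change limit and leaving out each library. Leaving out DMSO replicate 1 and SFN replicate 2 together was chosen after seeing the data.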

Additional observations from a re-analysis of the deposited data

Results flagged for a closer look

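In each group of 5 libraries, the gap between an extreme library and its neighbour was divided by the range of the group, for 38 tested carriers, the summed level of the family and the 11 paralog ratios. The ratio was above the 95% limit of Dixon's test, 0.71, in 22 of 100 groups, and chance gives about 1 in 20, or 5. DMSO replicate 1 was the library in 18 of the 22 and SFN replicate 2 in the other 4. The cause was not tested.

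In DMSO replicate 1 the high carriers were SLC25A4 (gap over range 0.925, 129 CPM), SLC25A26 (0.893, 8.53 CPM), SLC25A14 (0.893, 20.3 CPM), SLC25A3 (0.871, 457 CPM), SLC25A38 (0.752, 61.8 CPM), SLC25A21 (0.74, 2.62 CPM), SLC25A33 (0.722, 18.1 CPM), SLC25A44 (0.719, 34.7 CPM) and SLC25A5 (0.712, 204 CPM). The low ones were SLC25A23 (0.789, 14.01 CPM), SLC25A12 (0.726, 21.1 CPM) and SLC25A30 (0.725, 18.3 CPM). The summed level of the family after TMM scaling was high there too (0.899, 1619 CPM). As a share of raw counts it was 0.143% there, beside 0.137% to 0.141% in the other DMSO libraries.

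Of the paralog log2 ratios, those of SLC25A14/SLC25A30 (0.822), SLC25A24/SLC25A25 (0.772) and SLC25A4/SLC25A5 (0.742) were highest in DMSO replicate 1, and those of SLC25A23/SLC25A25 (0.812) and SLC25A23/SLC25A24 (0.8) were lowest. In SFN replicate 2, SLC25A29 (0.836, 14.4 CPM) was high, and SLC25A13 (0.843, 23.9 CPM), SLC25A24 (0.748, 135 CPM) and the SLC25A24/SLC25A25 log2 ratio (0.729, at 1.32) were low.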

How the results depend on the processing

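SLC25A25 and SLC25A29 had adjusted p under 0.05 under every refit, and SLC25A12, SLC25A16 and SLC25A13 in 13, 10 and 8 of 20. SLC25A34 passed under every refit that kept it, but it had passed the main filter through its SFN libraries only, so this is not independent support. The counts of increased and decreased carriers, 2 and 5 with 10 libraries, changed as follows, and the cause was not tested except where fewer genes or a stricter call made the number smaller. Increased carriers were 4 with relative log expression (RLE) size factors, 4 with DESeq2, 4 with limma-voom and quantile normalization, 12 with sample quality weights and 1 with a filter at a mean of 1 CPM, which removed SLC25A34. Decreased carriers were 3 with quantile normalization, 12 with quality weights, 3 without a filter and 0 when a fold change of over 2 was required. All genes called, 3076 with 10 libraries, were 7915 with quality weights and 1163 with the fold change limit. The other lists had 17 increased and 7 decreased with quality weights, 1 increased without a filter, and 1 and 0 with the fold change limit. The median of the carriers was 0.069 with quantile normalization.

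Leaving out 1 library gave 2 to 10 carriers increased, 2 to 7 decreased, 2383 to 6251 genes called, 1 to 14 genes of the other lists increased and 2 to 6 decreased, with the upper ends without DMSO replicate 1. Without DMSO replicate 1 and SFN replicate 2 together, 10 carriers were increased and 9 decreased, 6379 genes were called, and the other lists had 14 increased and 6 decreased.

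The deviations of same-numbered libraries from their group means had correlations of 0.05, -0.33, -0.08, 0.04 and 0.56 for replicates 1 to 5. Of these 5 pairs, 1 was over 0.1, so the numbers were not taken to pair the samples, although the authors' own test allowed for repeated measures without naming which samples were related. With a replicate block, 3 carriers were decreased, as SLC25A13 (adjusted p = 0.11 by edgeR) and SLC25A16 (adjusted p = 0.096 by edgeR) no longer passed, and 1 gene of the other lists was increased. With signs exchanged within pairs, 0 of 11 paralog ratios passed, where the smallest exact p is 0.0625.

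Some values that did not pass the test changed sign, and the largest of these in size with 10 libraries were SLC25A21 (-0.64), SLC25A4 (-0.36), SLC25A32 (0.24) and SLC25A23 (0.18). With library size only, SLC25A33 was at -0.024, SLC25A22 at -0.033 and SLC25A11 at -0.059, and with upper quartile scaling SLC25A33 at -0.0031 and SLC25A11 at -0.017. With quantile normalization SLC25A44 was at 0.022, SLC25A38 at 0.037, SLC25A53 at 0.20, SLC25A43 at 0.057, SLC25A51 at 0.069 and SLC25A17 at 0.011. With quality weights SLC25A44 was at 0.059, SLC25A38 at 0.20, SLC25A4 at 0.089, SLC25A32 at -0.10, SLC25A22 at -0.052 and SLC25A23 at -0.0059. With the block SLC25A38 was at 0.022. Without DMSO replicate 1 and SFN replicate 2, SLC25A44 was at 0.054, SLC25A38 at 0.17, SLC25A22 at -0.13, SLC25A21 at 0.052 and SLC25A11 at -0.0051. Leaving out 1 library gave ranges of -0.091 to 0.30 for SLC25A33, -0.072 to 0.066 for SLC25A44, -0.12 to 0.21 for SLC25A38, -0.46 to 0.020 for SLC25A4, -0.25 to 0.054 for SLC25A53, -0.014 to 0.51 for SLC25A14, -0.052 to 0.13 for SLC25A22, -0.11 to 0.12 for SLC25A11 and -0.067 to 0.21 for SLC25A10. Among ratios the ranges were -0.030 to 0.066 for SLC25A28/SLC25A37, -0.28 to 0.051 for SLC25A23/SLC25A24 and -0.055 to 0.17 for SLC25A39/SLC25A40.

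With at most 21 counts for SLC25A34, counting error limits its fold change, and the 6 carriers that the filter left out were given no call, with adjusted p between 0.19 and 0.94 by edgeR when no filter was used.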
